A study of Homo sapiens with 12 samples.

Results

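The proteins of the mitochondrial ribosome that carry MRPL or MRPS symbols were described across 4 lines of 786-O, a human clear cell renal cell carcinoma line. Members were all protein-coding genes of the count table whose symbol starts with MRPL or MRPS followed by a number, with pseudogenes, antisense and divergent transcripts left out. This gave 78 genes of 62702 in the table, 49 with MRPL symbols and 29 with MRPS symbols. Here 51 were counted with the large subunit and 27 with the small subunit. MRPS18A and MRPS30 sit in the large subunit despite their symbols. MRPS36 was kept with the small subunit by its symbol, but the protein is known as a subunit of the 2-oxoglutarate dehydrogenase complex.

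RNA was measured by BRB-seq, which counts the 3′ ends of polyadenylated RNA from pooled barcoded samples. The 12 libraries form 4 groups of 3, all exposed to doxycycline for 72 hours. The shHIF2A line carries an inducible shRNA against EPAS1, the gene of the hypoxia factor HIF2A. In the shJUNs line the shRNAs target 3 subunits of AP-1, namely JUN, JUNB and JUND, and in the shYAPTAZ line they target the Hippo pathway coactivators YAP1 and WWTR1 (TAZ). Parental cells, labelled as the control, received doxycycline too. A control shRNA line was not analysed here, and the labels name 1 antibiotic-selected line per knockdown, so the knockdown cannot be told apart from other differences between the lines. The labels call the libraries technical replicates, so p-values measure only the spread between these libraries.

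Total counts per library were 2272459 to 4469956. Against parental cells, edgeR's quasi-likelihood test with Benjamini-Hochberg adjustment found EPAS1 lower in shHIF2A (log2 change -3.67, adjusted p = 6.38e-07), and JUND lower in shJUNs (-3.20, adjusted p = 1.41e-11). It found YAP1 lower in shYAPTAZ (-2.26, adjusted p = 1.2e-06). Of the other targets, JUN had 78.1 to 93 CPM in shJUNs, against 137 to 172 CPM in parental cells, whereas JUNB, with 103 to 125 CPM in shJUNs against 97 to 266 CPM in parental cells, overlapped. WWTR1 had 143 to 169 CPM in shYAPTAZ, against 239 to 369 CPM in parental cells. Targets were not separate between lines, since EPAS1 was also lower in shJUNs (-2.45, adjusted p = 1.78e-05). In shHIF2A all libraries lay below the parental ones for JUN (79.5 to 80.6 CPM), for JUND (186 to 269 CPM, against 310 to 390 CPM in parental cells) and for YAP1 (43.4 to 48.4 CPM, against 58.2 to 71.2 CPM). JUND was below them in shYAPTAZ too (165 to 173 CPM). In the other direction, WWTR1 lay above all parental libraries in shHIF2A (474 to 519 CPM) and in shJUNs (408 to 460 CPM). The renal lineage factor PAX8 had 79.6 to 113 CPM in the 12 libraries, the carcinoma marker CA9 only 0.894 to 4.78 CPM, and the endothelial marker PECAM1 no counts.

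The mitochondrial ribosome translates the handful of mRNAs of the mitochondrial genome, all of which encode core subunits of the respiratory chain and ATP synthase. Its rRNAs come from the mitochondrial genome, whereas all of its proteins are encoded in the nucleus, made in the cytosol and imported. Many of them have a counterpart in bacterial ribosomes and others were added in the mitochondrial lineage. Renal proximal tubule cells, from which clear cell carcinoma is thought to arise, are rich in mitochondria, and clear cell carcinomas that lack VHL run high HIF2A activity.

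Promoters of MRPL52, MRPL40 and MRPL17 are shown because these genes were higher than in parental cells in all 3 knockdown lines and are among the members with the smallest p. Each window (RefSeq, GRCh38.p14) runs from 250 bases before to 50 bases after the annotated start, 5′ to 3′ on the strand of the gene. Capitals mark matches, on either strand, to the motifs searched. MRPL52 is at chr14:22829637-22829936 on the plus strand, MRPL40 at chr22:19432295-19432594 on the plus strand, and MRPL17 at chr11:6683291-6683590 on the minus strand.
MRPL52: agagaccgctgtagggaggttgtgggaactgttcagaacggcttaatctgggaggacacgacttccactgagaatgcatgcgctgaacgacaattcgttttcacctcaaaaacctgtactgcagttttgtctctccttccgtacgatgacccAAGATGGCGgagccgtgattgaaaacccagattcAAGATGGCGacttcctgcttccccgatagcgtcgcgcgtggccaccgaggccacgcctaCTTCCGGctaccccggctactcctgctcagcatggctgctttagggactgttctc
MRPL40: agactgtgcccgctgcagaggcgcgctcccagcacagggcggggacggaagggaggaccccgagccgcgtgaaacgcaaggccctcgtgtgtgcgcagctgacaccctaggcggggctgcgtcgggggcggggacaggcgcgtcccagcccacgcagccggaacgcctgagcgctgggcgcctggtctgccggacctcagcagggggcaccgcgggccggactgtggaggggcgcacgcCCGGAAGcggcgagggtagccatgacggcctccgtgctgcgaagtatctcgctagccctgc
MRPL17: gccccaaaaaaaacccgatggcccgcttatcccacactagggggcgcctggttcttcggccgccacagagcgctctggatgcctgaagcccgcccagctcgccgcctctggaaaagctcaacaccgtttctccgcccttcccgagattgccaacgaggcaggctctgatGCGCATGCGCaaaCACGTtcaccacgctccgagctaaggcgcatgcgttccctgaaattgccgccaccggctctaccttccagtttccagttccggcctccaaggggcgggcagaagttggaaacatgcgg

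The motifs searched on both strands were NRF1 (GCGCA, then any base, then GCGC), a master regulator of nuclear genes for mitochondria, the ETS family motif bound by GABP (CCGGAAG), YY1 (AANATGGCG), the E-box bound by MYC (CACGTG), the core of the hypoxia response element (ACGTG), AP-1 (TGANTCA) and TEAD, the DNA-binding partner of YAP and TAZ (CATTCC). Each E-box also holds the hypoxia core. The MRPL52 window held YY1 matches at positions -98 and -64 from the start and an ETS match at -5. The MRPL40 window held an ETS match at -11, and the MRPL17 window held an NRF1 match at -81 and a hypoxia core at -68.

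RefSeq windows were matched for 69 of the 78 members. The ETS motif was in the windows of 30 of the 69 (43.5%), against 23.5% of 9031 other protein-coding genes tested and 12.2% of all 27305 genes with windows. The YY1 motif was in 18 (26.1%), against 8.61% of the other tested genes and 3.85% of all genes. NRF1 was in 9 members (13.0%, against 14.1% and 6.98%), the E-box in 9 (13.0%, against 12.9% and 8.77%) and the hypoxia core in 24 (34.8%, against 33.0% and 24.9%). The AP-1 motif was in 1 member (1.45%, against 6.95% and 9.37%) and the TEAD motif in 11 (15.9%, against 15.0% and 16.7%). Of the 23 matched members called higher in shHIF2A cells, 14 held an ETS match and 4 a YY1 match. Of the 41 tested and matched members that were not, 14 held an ETS match and 11 a YY1 match. The hypoxia core was in 5 of the 23 and 19 of the 41, the E-box in 1 and 8, and TEAD in 2 and 9. NRF1 was in 4 of the 23 and 5 of the 41, and AP-1 in 0 and 1. Whether these shares differ was not tested. These are matches of letters in a short window and say nothing about binding.

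The members were mostly well counted. Of the 78, 73 passed the filter on low counts, and their median level was 71.8 CPM (counts scaled to the library size) against 23.9 CPM over all 12301 genes tested. The highest mean levels over the 12 libraries were those of MRPL51 (389.0 CPM), MRPL33 (354 CPM) and MRPL20 (193 CPM), all proteins of the large subunit. MRPL51 belongs to the proteins without a bacterial counterpart, while MRPL33 and MRPL20 have one. Because 3′ ends are counted, these levels were not divided by gene length. The median coefficient of variation between libraries of the 73 members was 12.1% in shHIF2A, 9.8% in shJUNs, 18.1% in shYAPTAZ and 15.6% in parental cells. Over all genes tested it was 22.0%, 17.7%, 26.5% and 23.1%. The genes were not matched for level, and a higher count alone lowers this measure.

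The 5 members under the filter were MRPL38 and MRPL53, with 0 counts in all 12 libraries, MRPS24 with 7 counts, MRPL46 with 20 and MRPS5 with 21. MRPL38, MRPL46 and MRPL53 are large subunit proteins, and MRPS5 and MRPS24 are counterparts of bacterial small subunit proteins. In each of them, 89.0% to 100% of the last 300 annotated exonic bases also lie in another gene on the same strand. A count of 0 allowed up to 0.666 to 1.36 CPM per library, a limit of 3 counts that covers counting error only. Among the members, 7 shared at least 50% of these last bases with a same-strand gene, and only MRPL33 (14869 counts, shared with BABAM2) and MRPS28 (410 counts) passed the filter. The 9 members that shared as much only with a gene on the opposite strand had 915 to 6821 counts, and the 54 members that shared none had 170 to 16467. The sources used here do not say how reads in shared bases were handled, so the levels of MRPL38, MRPL46, MRPL53, MRPS5 and MRPS24 cannot be read from these counts.

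Summed over all members, the mRNAs of mitochondrial ribosomal proteins had their highest mean in shHIF2A cells, whose libraries overlapped those of shJUNs and shYAPTAZ but not those of parental cells. The sums per library were 6696, 7106 and 7840 CPM in shHIF2A, 6610, 6633 and 7077 CPM in shJUNs, 5716, 6170 and 7177 CPM in shYAPTAZ, and 5440, 5688 and 5760 CPM in parental cells. All shHIF2A and shJUNs libraries, and 2 of 3 shYAPTAZ libraries, lay above the highest parental library. The means were 7214 ± 580 CPM in shHIF2A, 6773 ± 263 CPM in shJUNs, 6354 ± 748 CPM in shYAPTAZ and 5629 ± 168 CPM in parental cells (SD, n = 3 each). CPM are shares of a library, so a change of total RNA per cell would not show.

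The large subunit proteins summed to 4752, 5010 and 5501 CPM in shHIF2A, 4613, 4636 and 5026 CPM in shJUNs, 4213, 4457 and 5252 CPM in shYAPTAZ, and 3791, 4012 and 4070 CPM in parental cells. The small subunit proteins summed to 1944, 2096 and 2339 CPM in shHIF2A, 1998, 1997 and 2051 CPM in shJUNs, 1503, 1713 and 1926 CPM in shYAPTAZ, and 1650, 1676 and 1690 CPM in parental cells. In shYAPTAZ all large subunit sums were above the parental ones, whereas the small subunit sums lay on both sides of them. The ratio of large to small subunit sums was 2.35 to 2.44 in shHIF2A, 2.31 to 2.45 in shJUNs, 2.60 to 2.80 in shYAPTAZ and 2.30 to 2.41 in parental cells, so that the shYAPTAZ libraries lay above all others. Without MRPS36, which had 25.6 to 66.6 CPM, the ratio was 2.42 to 2.52 in shHIF2A, 2.35 to 2.51 in shJUNs, 2.66 to 2.89 in shYAPTAZ and 2.36 to 2.5 in parental cells, in the same arrangement.

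**Figure D1:**
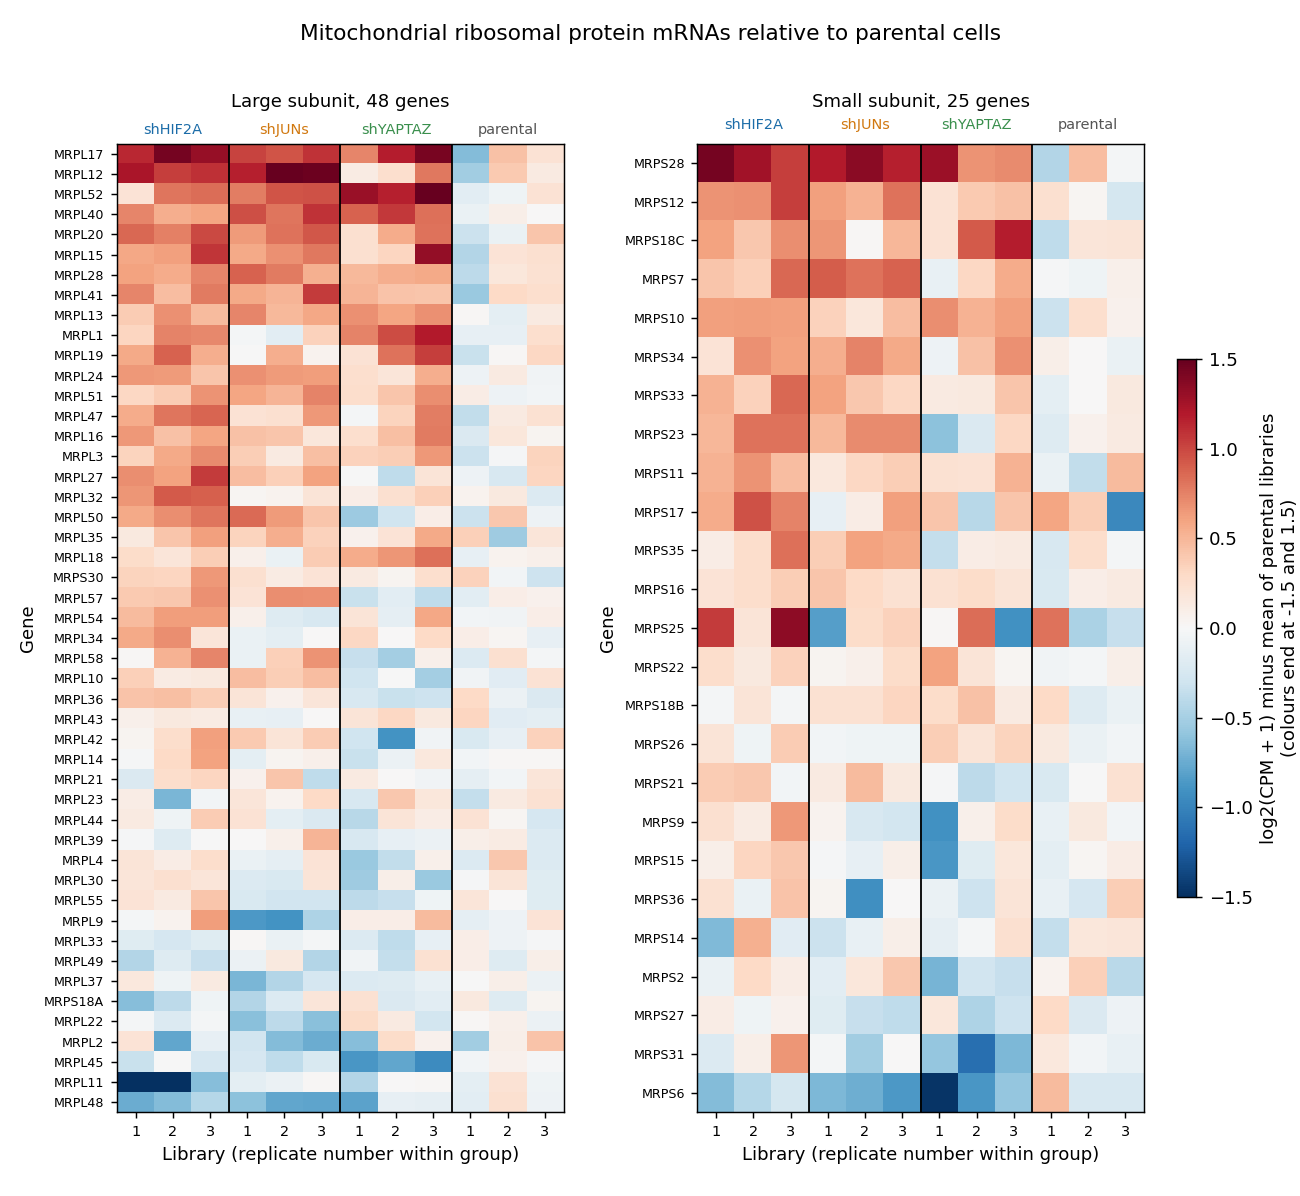
Each row is 1 of the 73 tested members and each column 1 library, with the colour giving log2(CPM + 1) minus the mean of the 3 parental libraries. Rows are ordered within the large (left) and small (right) subunit by their mean over the 9 knockdown libraries. MRPL17, MRPL12 and MRPL52 stand at the top of the large subunit, and MRPL11, near the foot, is lowest in the shHIF2A libraries.

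In shHIF2A cells most members that differed from parental cells were higher. Of the 73 tested, 26 were called higher and 2 lower (35.6% and 2.74%), against 9.84% and 8.80% of all genes tested in that comparison. A call means an adjusted p under 0.05 in edgeR's quasi-likelihood test, and a member that was not called may still differ. The median log2 change of the members was 0.40 (a 1.32-fold level), with quartiles of 0.15 and 0.61, against a median of 0.01 over all genes. The change was above 0 for 61 of the 73 members. The 3 shHIF2A libraries all lay above the 3 parental libraries for 33 members (45.2%) and all below for 5 (6.85%), against 18.8% and 17.3% of all genes. The count of higher members was 10 without parental replicate 1 or without shHIF2A replicate 2, where 6.04% and 6.45% of all genes were called higher. It was 12 without shHIF2A replicate 3 (all genes 6.9%), 13 without parental replicate 2 (6.77%) and 16 without shHIF2A replicate 1 (7.36%). Without parental replicate 3 (all genes 8.52%) or without the filter on low counts (4.95%) it was 17. With all libraries thinned to equal depth it was 15, where the share of all genes was 9.09%.

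MRPL17, the counterpart of bacterial L17 near the exit of the peptide tunnel, had 97.4, 121 and 110.0 CPM in shHIF2A, against 27.6, 59.9 and 51.2 CPM in parental cells. It was 2.36-fold higher (log2 change 1.24 ± 0.23 SE, adjusted p = 0.000608), with no overlap of the libraries. MRPL12, the stalk protein that recruits translation factors, had 81.2, 70.8 and 73.9 CPM in shHIF2A, against 23.4, 45.0 and 37.6 CPM in parental cells. Its log2 change was 1.08 ± 0.23 (SE, adjusted p = 0.00217), again with separate libraries.

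MRPL32, a large subunit protein that is cut by the mitochondrial m-AAA protease before assembly, had 146, 175 and 172 CPM in shHIF2A, against 95.3, 102 and 79.7 CPM in parental cells. The lowest shHIF2A library was above the highest parental one, and the log2 change was 0.83 ± 0.16 (SE, adjusted p = 0.000872). MRPL20, the counterpart of bacterial L20, had 232, 215 and 254 CPM in shHIF2A, against 102, 119 and 170.0 CPM in parental cells (log2 change 0.84, adjusted p = 0.00224). Its last exonic bases overlap an antisense gene by 46.0%, so its counts are uncertain. MRPS12, the counterpart of the decoding centre protein S12, had 93.0, 93.3 and 120.0 CPM in shHIF2A, against 68.4, 59.0 and 47.8 CPM in parental cells (log2 change 0.81, adjusted p = 0.0037).

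MRPL11 and MRPL48 were the members called lower in shHIF2A cells. MRPL11, which forms the base of the stalk where translation factors dock, had 31.0, 32.1 and 59.9 CPM in shHIF2A, against 84.8, 109 and 89.9 CPM in parental cells. It was 2.32-fold lower (log2 change -1.21 ± 0.23 SE, adjusted p = 0.000635), and all shHIF2A libraries lay below all parental ones. MRPL48, a large subunit protein without a bacterial counterpart, averaged 52.0 ± 6.15 CPM in shHIF2A and 79.9 ± 12 CPM in parental cells (SD, n = 3 each; log2 change -0.62, adjusted p = 0.0388). The MRPL48 call was lost without parental replicate 2 or 3 and without shHIF2A replicate 1 or 2, which left 1 lower member. Of all genes, 6.22% to 7.53% were called lower in these fits.

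In shJUNs cells the members were called in both directions, with more of them higher. Of the 73, 16 were called higher and 4 lower (21.9% and 5.48%), against 10.3% and 8.93% of all genes tested. The median log2 change was 0.17, with 46 members above 0, against a median of 0.00 over all genes. The 3 shJUNs libraries all lay above the parental ones for 24 members (32.9%) and all below for 7 (9.59%), against 20.5% and 19.0% of all genes. The count of lower members was 2 without parental replicate 1 (all genes 5.95%) or 2 (6.68%), or shJUNs replicate 1 (6.05%) or 3 (5.24%). It was 1 without shJUNs replicate 2 (all genes 5.73%).

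MRPL40, a large subunit protein without a bacterial counterpart, had 145, 129 and 157 CPM in shJUNs, against 68.8, 78.7 and 74.1 CPM in parental cells. It was 1.95-fold higher (log2 change 0.96 ± 0.16 SE, adjusted p = 0.000132), and the groups did not overlap. MRPL12 had 78.1, 98.0 and 96.1 CPM in shJUNs, with a log2 change of 1.35 ± 0.23 (SE, adjusted p = 0.000239). Its fold against parental cells was 2.55, with every shJUNs library above every parental one.

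MRPL52 had 187, 212 and 214 CPM in shJUNs, against 98.4, 105 and 128 CPM in parental cells (log2 change 0.89, adjusted p = 0.000992). MRPS7, the counterpart of bacterial S7 in the head of the small subunit, averaged 190.0 ± 6.83 CPM in shJUNs and 103 ± 5.18 CPM in parental cells (SD, n = 3 each; log2 change 0.88, adjusted p = 0.00111). MRPL51, the member with the highest level, had 442, 419 and 493 CPM in shJUNs, against 317, 279 and 285 CPM in parental cells (log2 change 0.62, adjusted p = 0.00295). In none of these 3 genes did the libraries overlap; 49.7% of the last exonic bases of MRPS7 are shared with opposite-strand genes.

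The 4 members called lower in shJUNs were MRPS6, MRPL48, MRPL9 and MRPL37. MRPS6, the counterpart of bacterial S6, had 92.5, 89.2 and 81.3 CPM in shJUNs, against 206, 126 and 126 CPM in parental cells (log2 change -0.80, adjusted p = 0.011). Parental replicate 1 stood apart for MRPS6, and without it, or without shJUNs replicate 3, the call was lost. MRPL48 averaged 47.6 ± 3.38 CPM in shJUNs and 79.9 ± 12 CPM in parental cells (log2 change -0.75, adjusted p = 0.0127).

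MRPL9, the counterpart of bacterial L9, averaged 47.2 ± 8.35 CPM in shJUNs and 79.2 ± 10.6 CPM in parental cells (log2 change -0.75, adjusted p = 0.0133). MRPL37, a large subunit protein without a bacterial counterpart, averaged 127 ± 18.7 CPM in shJUNs and 174 ± 10.5 CPM in parental cells (log2 change -0.45, adjusted p = 0.036). The libraries of the 2 groups did not overlap in either gene, nor for MRPL48. Each of these 3 calls was lost without some of the libraries: MRPL48 without parental replicate 2 or shJUNs replicate 2 or 3, MRPL9 without parental replicate 3 or shJUNs replicate 1 or 2, and MRPL37 without parental replicate 1 or 2 or shJUNs replicate 1 or 2. Opposite-strand genes share 88.3% of the last exonic bases of MRPL9, so its level is uncertain.

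In shYAPTAZ cells 13 of the 73 members were called higher and 2 lower than in parental cells (17.8% and 2.74%), against 13.0% and 12.3% of all genes tested. The share called higher was thus near the background. The median log2 change was 0.12, with 42 members above 0, against a median of 0.02 over all genes. The 3 shYAPTAZ libraries all lay above the parental ones for 17 members (23.3%) and all below for 6 (8.22%), against 18.1% in each direction among all genes. The count of higher members was 7 (9.59%) without parental replicate 1 or 2, against 10.2% and 9.74% of all genes. It was 6 (8.22%) without shYAPTAZ replicate 3, against 11.1% of all genes. A fit of the 6 libraries of these groups alone also gave 6, against 10.2% of all genes. In these settings the share higher was under that of all genes.

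MRPL52, a large subunit protein without a bacterial counterpart, had 271, 248 and 335 CPM in shYAPTAZ, against 98.4, 105 and 128 CPM in parental cells. It was 2.58-fold higher (log2 change 1.37 ± 0.18 SE, adjusted p = 5.14e-06), with every shYAPTAZ library above every parental one. In shHIF2A, where MRPL52 was also called higher (log2 change 0.64, adjusted p = 0.0132), its 127, 192 and 197 CPM overlapped the parental libraries. MRPL52 lies on chromosome 14, where the other tested genes had a median log2 change of 0.88 in shYAPTAZ and 0.39 in shJUNs. The part of chromosome dosage in the change of MRPL52 was not tested.

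MRPL40 had 137, 155 and 132 CPM in shYAPTAZ, against 68.8, 78.7 and 74.1 CPM in parental cells (log2 change 0.94, adjusted p = 0.000117). MRPL17 had 73.5, 101 and 120.0 CPM in shYAPTAZ, against 27.6, 59.9 and 51.2 CPM in parental cells (log2 change 1.08, adjusted p = 0.00123). MRPL1, the counterpart of the bacterial L1 stalk protein, averaged 60.6 ± 9.41 CPM in shYAPTAZ and 30.4 ± 4.97 CPM in parental cells (SD, n = 3 each; log2 change 1.00, adjusted p = 0.00254). For all 3 genes the shYAPTAZ libraries lay above the parental ones. MRPL18, the counterpart of bacterial L18, averaged 139 ± 13.0 CPM in shYAPTAZ and 86.1 ± 6.27 CPM in parental cells (log2 change 0.69, adjusted p = 0.00376), also without overlap.

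MRPL45, a large subunit protein without a bacterial counterpart that lies by the exit of the peptide tunnel at the inner membrane, had 48.1, 51.3 and 45.5 CPM in shYAPTAZ, against 85.9, 92.5 and 87.9 CPM in parental cells. It was 1.84-fold lower (log2 change -0.88 ± 0.17 SE, adjusted p = 0.000673), and the groups were far apart. MRPS6 had 53.1, 80.6 and 98.8 CPM in shYAPTAZ, against 206, 126 and 126 CPM in parental cells (log2 change -0.96, adjusted p = 0.00211). Every shYAPTAZ library was below every parental one.

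**Figure D2:**
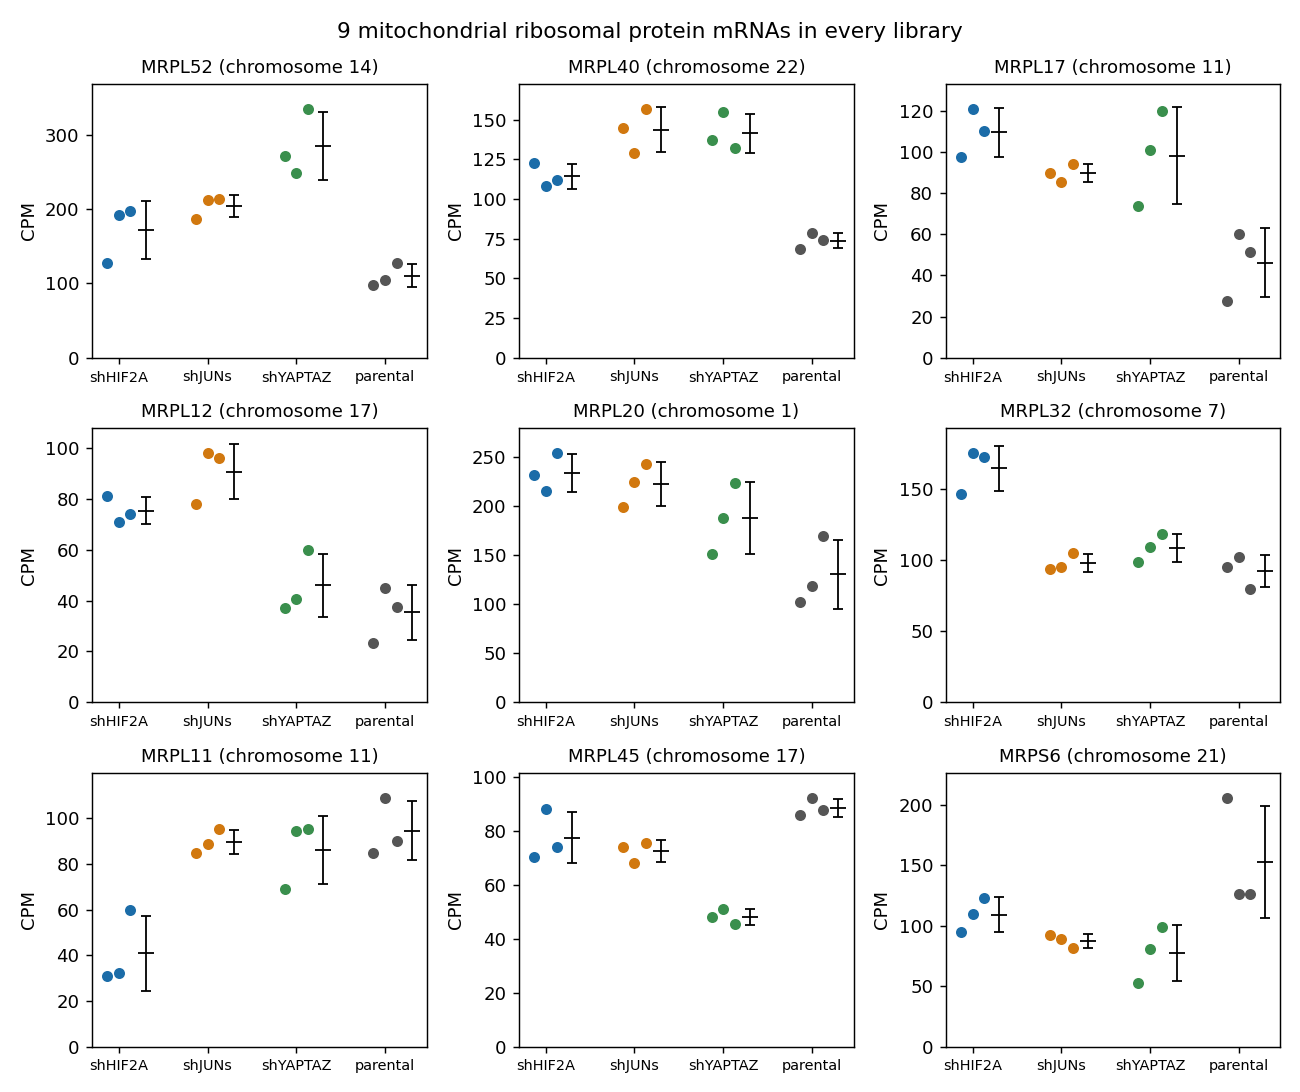
CPM of 9 members in each library, with points for libraries and a bar for the mean ± SD of 3. MRPL52, MRPL40 and MRPL17 have their lowest mean in parental cells, MRPL32 stands out in shHIF2A at 146 to 175 CPM, MRPL11 is lowest in shHIF2A and MRPL45 in shYAPTAZ.

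The 3 comparisons with parental cells share the same 3 parental libraries, so calls that recur are given as a description. In at least 1 of them 36 of the 73 members were called, against 39.5% of all genes tested, and 37 were called in none. MRPL13, MRPL17, MRPL20, MRPL40, MRPL51 and MRPL52 were called higher in all 3, as were 3.18% of all genes, and no member was called lower in all 3, against 2.85%. No member was called in opposite directions in 2 knockdowns. Among the 4 groups, 34 of the 73 members differed, against 38.7% of all genes tested.

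**Figure D3:**
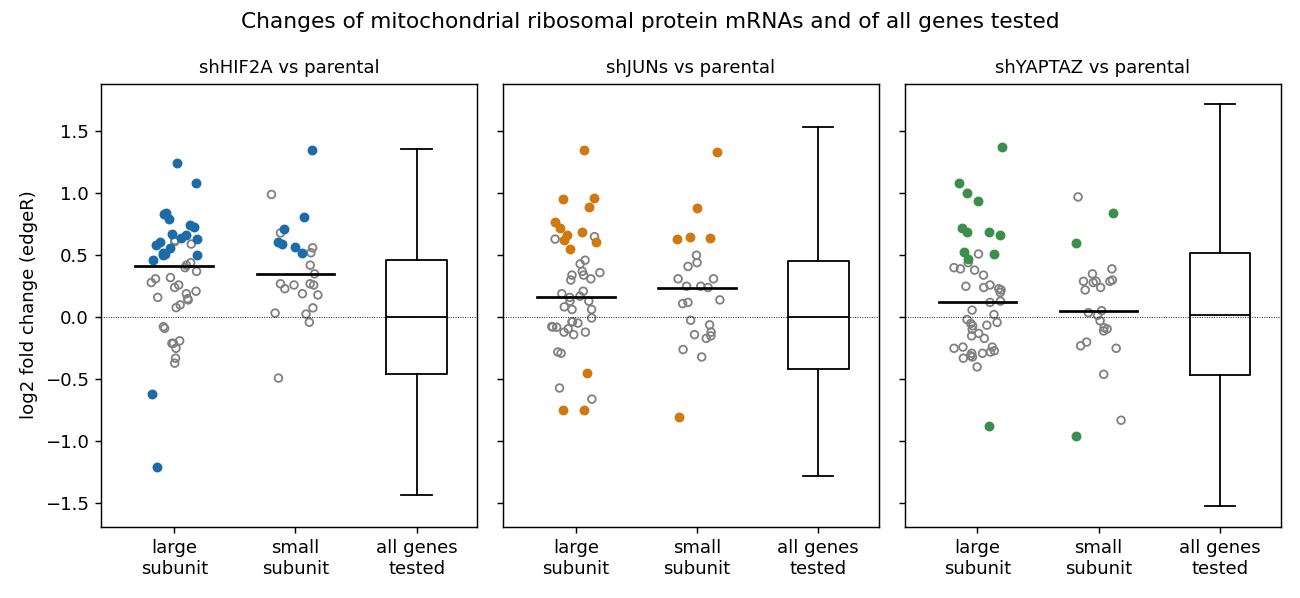
log2 fold change against parental cells (edgeR) of each tested member, split by subunit, with filled points for calls at an adjusted p under 0.05 and a line at the median. The box gives the quartiles and the whiskers the central 90% of all 12301 genes tested; the medians of the members in shHIF2A are 0.41 (large subunit) and 0.35 (small subunit).

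The knockdown lines were also set against each other. In shJUNs against shHIF2A, 1 member was called higher and 5 lower (1.37% and 6.85%), against 4.36% and 3.17% of all genes, and the median log2 difference was -0.14. MRPL11 was higher in shJUNs, with 84.8, 88.7 and 95.4 CPM there, against 31.0, 32.1 and 59.9 CPM in shHIF2A (log2 difference 1.13, adjusted p = 0.00261). MRPL32 was lower in shJUNs, with 93.6, 95.1 and 105 CPM there, against 146, 175 and 172 CPM in shHIF2A (log2 difference -0.75, adjusted p = 0.00453). Neither gene's libraries overlapped. MRPL9 was lower in shJUNs (47.2 ± 8.35 CPM) than in shHIF2A (93.6 ± 24.4 CPM; log2 difference -0.98, adjusted p = 0.00411). MRPL37 was lower as well (log2 difference -0.53, adjusted p = 0.0312), but this call was lost in 7 of the 18 alternatives, among them leaving out shHIF2A replicate 1, 2 or 3 or shJUNs replicate 1 or 2. The count of lower members was 2 without shHIF2A replicate 1 (all genes 1.83%) or 2 (1.52%), or shJUNs replicate 1 (1.33%) or 2 (1.51%). It was also 2 without the filter on low counts (1.65%) or with thinned libraries (2.71%). It was 3 without shHIF2A replicate 3 (2.11%), shJUNs replicate 3 (1.29%) or parental replicate 2 (2.42%).

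In shYAPTAZ against shHIF2A, 2 members were called higher and 12 lower (2.74% and 16.4%), against 9.71% and 8.72% of all genes, with a median log2 difference of -0.23. The members called higher were MRPL52 (log2 difference 0.73, adjusted p = 0.00466) and MRPL11 (1.08, adjusted p = 0.00171). MRPL57, a large subunit protein without a bacterial counterpart, had 79.9, 90.1 and 77.4 CPM in shYAPTAZ, against 132, 134 and 163 CPM in shHIF2A (log2 difference -0.79, adjusted p = 0.00238). MRPL36, the counterpart of bacterial L36, had 91.2, 85.3 and 86.7 CPM in shYAPTAZ, against 145, 148 and 139 CPM in shHIF2A (log2 difference -0.71, adjusted p = 0.0034). MRPS23, a small subunit protein without a bacterial counterpart, averaged 98.8 ± 32.6 CPM in shYAPTAZ and 177 ± 21.2 CPM in shHIF2A (log2 difference -0.83, adjusted p = 0.00401). The libraries of these 3 genes did not overlap. The count of lower members was 6 without shHIF2A replicate 2 (all genes 5.98%) and 7 in a fit of the 6 libraries of both lines (6.31%).

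In shYAPTAZ against shJUNs, 3 members were called higher and 8 lower (4.11% and 11%), against 7.87% and 8.27% of all genes, with a median log2 difference of -0.04. MRPL9 was higher in shYAPTAZ (log2 difference 0.98, adjusted p = 0.00203), as were MRPL1 (0.93, adjusted p = 0.00612) and MRPL18 (0.56, adjusted p = 0.0226). The MRPL18 call was lost without shJUNs replicate 1 or 2 or shYAPTAZ replicate 2 or 3. MRPL57 was lower in shYAPTAZ (log2 difference -0.84, adjusted p = 0.00148), as were MRPL12 (-0.97, adjusted p = 0.00485) and MRPS23 (-0.76, adjusted p = 0.00875). The lower count was 4 without shJUNs replicate 1 (all genes 5.34%) or 3 (5.5%) and 5 without shYAPTAZ replicate 2 (5.45%). The higher count was 5 without shYAPTAZ replicate 1 (all genes 6.75%) or with DESeq2 (9.5%).

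By subunit, 19 of 48 large subunit members were called higher and 2 lower in shHIF2A cells (39.6% and 4.17%). Of 25 small subunit members, 7 were higher (28.0%) and 0 lower. Of all genes, 9.84% were called higher in that comparison. In shJUNs cells 11 large subunit members were higher and 3 lower, and 5 small subunit members were higher and 1 lower. In shYAPTAZ cells the large subunit had 11 higher and 1 lower, and the small subunit 2 higher and 1 lower. The shares called higher were 22.9% (large) and 20% (small) in shJUNs, against 10.3% of all genes, and 22.9% (large) and 8.0% (small) in shYAPTAZ, against 13.0%. All shares called lower were under those of all genes, which were 8.80% in shHIF2A, 8.93% in shJUNs and 12.3% in shYAPTAZ. In shHIF2A the median log2 change was 0.41 for large and 0.35 for small subunit members. In shJUNs these medians were 0.17 (large) and 0.24 (small), and in shYAPTAZ 0.12 (large) and 0.05 (small). Whether the subunits differ was not tested.

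Of 44 tested members with a bacterial counterpart, 18 were higher and 1 lower in shHIF2A, 9 higher and 2 lower in shJUNs, and 10 higher and 1 lower in shYAPTAZ. Of 29 members without one, 8 were higher and 1 lower in shHIF2A, 7 higher and 2 lower in shJUNs, and 3 higher and 1 lower in shYAPTAZ. The shares lower were 2.27% to 6.9%, each under that of all genes (8.80%, 8.93% and 12.3% in these lines). The shares higher, with and without a counterpart, were 40.9% and 27.6% in shHIF2A (all genes 9.84%), then 20.5% and 24.1% in shJUNs (all genes 10.3%). In shYAPTAZ they were 22.7% and 10.3% (all genes 13.0%), the latter resting on 3 members and near the background. In shHIF2A the median log2 change was 0.45 for members with a counterpart and 0.31 for those without. In shJUNs these medians were 0.18 (with) and 0.17 (without), and in shYAPTAZ 0.23 (with) and -0.03 (without).

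Several members lie on chromosomes whose other genes had shifted medians. On chromosome 13 the other tested genes had a median log2 difference of -0.53 in shYAPTAZ against shHIF2A. Both members there, MRPL57 and MRPS31, were called lower in that comparison, as were 8.72% of all genes. Against parental cells the chromosome 13 median was -0.52 in shYAPTAZ, and neither member was called. On chromosome 16 the medians were 0.03 in shHIF2A, 0.34 in shJUNs and 0.33 in shYAPTAZ. MRPL28 and MRPS34 were called higher in shHIF2A and shJUNs, as were 9.84% and 10.3% of all genes, but were not called in shYAPTAZ. MRPL40 lies on chromosome 22, with medians of 0.08 in shHIF2A, 0.31 in shJUNs and 0.27 in shYAPTAZ, each below its own log2 changes of 0.63, 0.96 and 0.94. On chromosome 17, 5 of the 7 members were called lower in shYAPTAZ than in shHIF2A and 5 lower than in shJUNs. The medians of the other genes there were -0.19 and -0.26, and 8.72% and 8.27% of all genes were called lower. The share called among the other genes of each chromosome is not given here. In shHIF2A against parental cells no chromosome with a member had a median of the other genes above 0.08 or below -0.12. The part of chromosome copies in these results was not tested.

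**Figure D4:**
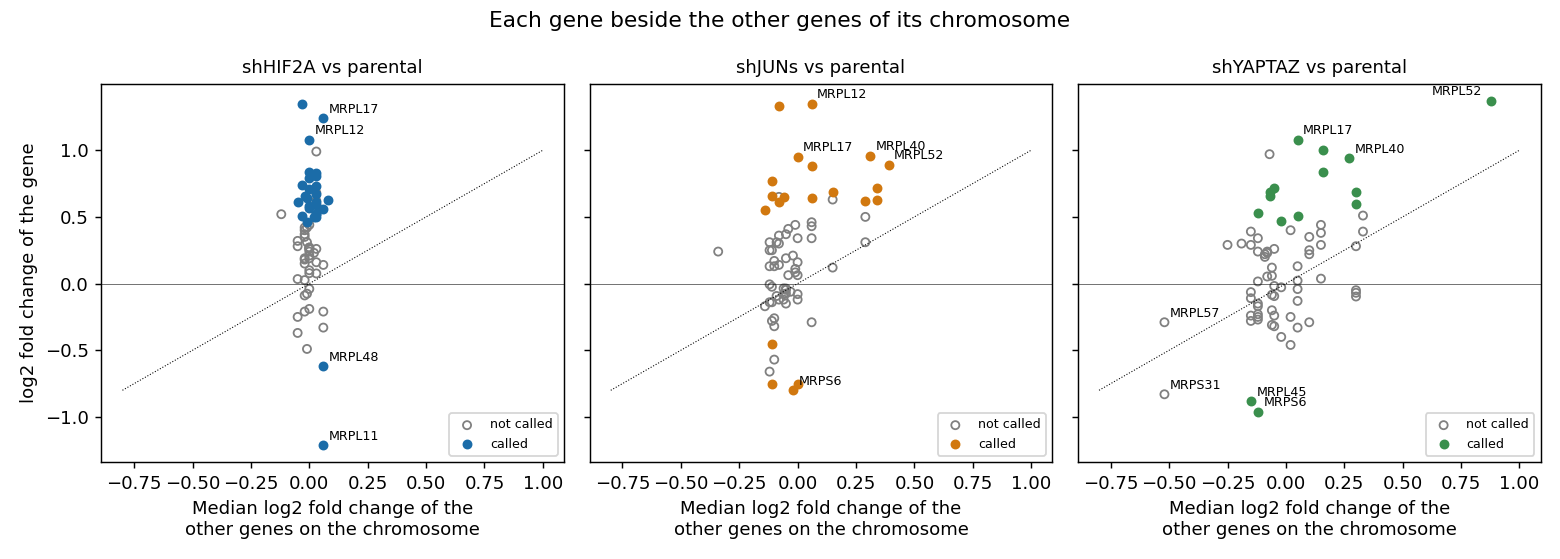
Each point is a tested member, with the median log2 change of the other tested genes on its chromosome on the horizontal axis and its own log2 change against parental cells on the vertical axis. Filled points are calls, and the dotted line marks equal values. The chromosome medians lie near 0 in shHIF2A, and MRPL52 stands at 0.88 on the horizontal axis in shYAPTAZ.

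Human mitochondria have 3 proteins related to bacterial S18: MRPS18A in the large subunit, and MRPS18B and MRPS18C in the small subunit. Only MRPS18C was counted above with the members that have a bacterial counterpart, and MRPS18A and MRPS18B were counted with those without one. MRPS18C had 29.3, 25.3 and 31.2 CPM in shHIF2A, 30.6, 19.2 and 27.0 CPM in shJUNs, 22.2, 36.6 and 43.9 CPM in shYAPTAZ, and 14.3, 21.6 and 21.8 CPM in parental cells. It was called higher in shYAPTAZ (log2 change 0.84, adjusted p = 0.0368). MRPS18B averaged 73.3 ± 6.71 CPM in shHIF2A, 85.3 ± 3.34 CPM in shJUNs, 87.0 ± 9.38 CPM in shYAPTAZ and 71.7 ± 13.6 CPM in parental cells. MRPS18A averaged 28.7 ± 5.97 CPM in shHIF2A, 33.5 ± 7.61 CPM in shJUNs, 35.8 ± 6.37 CPM in shYAPTAZ and 36.9 ± 4.47 CPM in parental cells. Neither MRPS18A nor MRPS18B was called in any comparison, and all of the last exonic bases of MRPS18A and MRPS18C overlap an opposite-strand gene.

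The mitochondrial rRNAs, around which the proteins assemble, are polyadenylated and were counted too. MT-RNR1, the rRNA of the small subunit, averaged 2120 ± 98.5 CPM in shHIF2A, 2160 ± 88.0 CPM in shJUNs, 2550 ± 180.0 CPM in shYAPTAZ and 1210 ± 228 CPM in parental cells (SD, n = 3 each). It was called higher in shHIF2A (log2 change 0.81, adjusted p = 4.02e-05), shJUNs (0.84, adjusted p = 1.95e-05) and shYAPTAZ (1.08, adjusted p = 4.36e-07). MT-RNR2, the rRNA of the large subunit, was called in none, with log2 changes of 0.14, -0.04 and 0.29.

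The mRNAs that the mitochondrial ribosome translates were counted for the 13 protein-coding genes of the mitochondrial genome. These 13 genes summed to 35385 to 45139 CPM in shHIF2A and 27625 to 32213 CPM in shJUNs. Their sums were 25817 to 32069 CPM in shYAPTAZ and 33634 to 35813 CPM in parental cells. Calls are per gene, not per separate mRNA. In shHIF2A 5 of the 13 genes were called higher and 0 lower, and in shJUNs 0 higher and 3 lower. In shYAPTAZ 1 was called higher and 7 lower. The 38.5% higher in shHIF2A stood against 9.84% of all genes, the 23.1% lower in shJUNs against 8.93%, and the 53.8% lower in shYAPTAZ against 12.3%. In the other directions, 8.80% of all genes were lower in shHIF2A and 10.3% higher in shJUNs. In shYAPTAZ 13.0% of all genes were higher, against 7.69% of these 13 genes. MT-CO3, a subunit of cytochrome oxidase, averaged 14600 ± 1300 CPM in shHIF2A, 10800 ± 807 CPM in shJUNs, 9040 ± 202 CPM in shYAPTAZ and 11200 ± 447 CPM in parental cells. It was called higher in shHIF2A (log2 change 0.38, adjusted p = 0.00207) and lower in shYAPTAZ (-0.31, adjusted p = 0.00555). MT-CO1 was the gene of the 13 called higher in shYAPTAZ (log2 change 0.90, adjusted p = 7.07e-06).

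**Figure D5:**
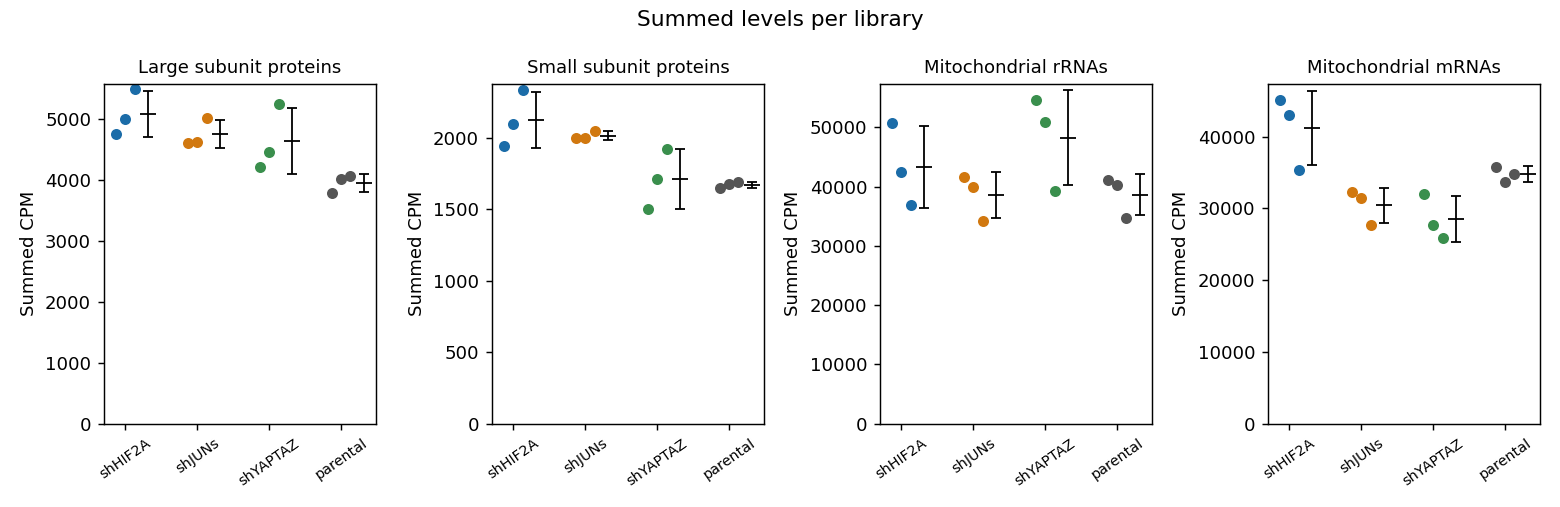
Summed CPM per library of the large and small subunit proteins, the 2 mitochondrial rRNAs and the mRNAs of the 13 mitochondrial protein-coding genes. Points are libraries and a bar gives the mean ± SD of 3. Large subunit sums in parental cells, 3791 to 4070 CPM, lie below those of all 9 knockdown libraries.

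Among 5 proteins of the mitochondrial ribosome with other symbols, AURKAIP1 was called higher in shHIF2A (log2 change 0.53, adjusted p = 0.0362), and none was called in shJUNs or shYAPTAZ. Of 26 tested assembly and rRNA modification factors, 4 were higher and 1 lower in shHIF2A, 1 higher and 0 lower in shJUNs, and 2 higher and 2 lower in shYAPTAZ. The shares higher were 15.4% in shHIF2A (all genes 9.84%), 3.85% in shJUNs (all genes 10.3%) and 7.69% in shYAPTAZ (all genes 13.0%), near or under the background. The shares lower were 3.85% in shHIF2A (all genes 8.80%), 0% in shJUNs (8.93%) and 7.69% in shYAPTAZ (12.3%). FASTKD2, an RNA-binding factor of large subunit assembly, averaged 76.6 ± 13.0 CPM in shHIF2A and 37.7 ± 4.34 CPM in parental cells (log2 change 1.02, adjusted p = 0.0012). DDX28, a helicase of large subunit assembly, averaged 13.9 ± 2.0 CPM in shJUNs and 2.44 ± 0.993 CPM in parental cells (log2 change 2.47, adjusted p = 0.00111).

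Of 12 tested translation factors, none was called in shHIF2A or shJUNs, where 9.84% and 10.3% of all genes were higher and 8.80% and 8.93% lower. In shYAPTAZ, OXA1L, the insertase that receives the new proteins, was higher (log2 change 0.52, adjusted p = 0.0316), and the initiation factor gene MTIF3 was lower (-1.13, adjusted p = 0.000403). Each was 8.33% of the list, against 13.0% of all genes higher and 12.3% lower. OXA1L lies on chromosome 14 and MTIF3 on chromosome 13, whose other genes shifted in the same directions. A list of mitochondrial aminoacyl-tRNA synthetases also held GATB, GATC and QRSL1, which are amidotransferase subunits. GATC was called lower in shYAPTAZ (log2 change -0.71, adjusted p = 0.0472). Of the 21 tested genes of this list, 5 were higher and 1 lower in shHIF2A, and 3 higher and 2 lower in shJUNs. In shYAPTAZ 4 were higher and 4 lower, GATC included. The shares higher in the list were 23.8% in shHIF2A (all genes 9.84%) and 14.3% in shJUNs (all genes 10.3%). In shYAPTAZ 19.0% were higher (all genes 13.0%) and 19.0% lower (all genes 12.3%). In shHIF2A 4.76% were lower (all genes 8.80%), and in shJUNs 9.52% (all genes 8.93%). KARS1, which charges lysine tRNAs in both cytosol and mitochondria, was higher in all 3 lines (log2 changes 0.70, 0.77 and 0.62), and GARS1, which does so for glycine, was lower in all 3 (-0.46, -0.72 and -1.13).

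Of 16 genes of mitochondrial transcription and RNA stability, 4 were higher in shHIF2A, 1 in shJUNs and 2 in shYAPTAZ, and 1 was lower, in shYAPTAZ. The shares higher of 25% in shHIF2A, 6.25% in shJUNs and 12.5% in shYAPTAZ compare with 9.84%, 10.3% and 13.0% of all genes called higher in the same lines. The 6.25% lower in shYAPTAZ compares with 12.3% of all genes. TRMT10C, a subunit of mitochondrial RNase P, averaged 49.1 ± 6.94 CPM in shHIF2A and 20.1 ± 8.03 CPM in parental cells (log2 change 1.28, adjusted p = 0.00295). LRPPRC, which stabilises mitochondrial mRNAs, averaged 64.2 ± 5.76 CPM in shYAPTAZ and 110.0 ± 7.72 CPM in parental cells (log2 change -0.78, adjusted p = 0.00163), whereas its partner SLIRP was called higher there (1.09, adjusted p = 0.0099). SLIRP was also called higher in shHIF2A (1.00, adjusted p = 0.0225) and shJUNs (1.09, adjusted p = 0.012). It lies on chromosome 14, where the medians of the other genes were -0.01 in shHIF2A, 0.39 in shJUNs and 0.88 in shYAPTAZ.

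Among 9 regulators of mitochondrial biogenesis, 2 were higher and 1 lower in shHIF2A (22.2% and 11.1%), against 9.84% and 8.80% of all genes. In shJUNs and in shYAPTAZ 1 was called in each direction (11.1% each). This was near the 10.3% and 8.93% of all genes in shJUNs and the 13.0% and 12.3% in shYAPTAZ. PPARGC1A, the coactivator PGC-1α, averaged 12.5 ± 5.12 CPM in shHIF2A, 4.26 ± 2.10 CPM in shJUNs, 0.454 ± 0.786 CPM in shYAPTAZ and 0.421 ± 0.240 CPM in parental cells. It was called higher in shHIF2A (log2 change 4.83, adjusted p = 0.000806) and shJUNs (3.29, adjusted p = 0.0155), where the parental level rests on 4 counts over its 3 libraries. MYC, which drives many ribosomal genes, was lower in all 3 lines (log2 changes -1.98, -1.73 and -2.06). YY1 was called higher in shYAPTAZ (log2 change 0.57, adjusted p = 0.00625) and lies on chromosome 14.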

How the data were processed

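RNA of 12 libraries was measured by BRB-seq. The authors deposited gene-level raw counts. The submitters' processing notes name Trim Galore, STAR and the build hg38, and the column layout is that of featureCounts, per the file headers. How strand, shared reads and molecular identifiers were handled, and with which annotation, is not given in the sources. The table had 62705 lines. The values of 1 gene, broken over 3 lines, were left out. Gene IDs were matched to symbols for 62624 of 62702 genes, and gene types were those of GENCODE.

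The members, the related gene lists and the motifs were chosen with earlier results of these data known. All genes were fitted in edgeR 4.0.16 (R 4.3.3): filterByExpr by group, TMM scaling, and robust quasi-likelihood dispersion in a single model of the 4 group means over 12 libraries. This tested 12301 genes, with a common dispersion of 0.0628. Calls needed p under 0.05 after Benjamini-Hochberg adjustment over all of them. CPM are counts divided by the TMM-scaled library size, and totals of 2272459 to 4469956 counts set the limit of 3 counts at 0.666 to 1.36 CPM. Intervals and limits cover counting error only. Replicates differed beyond counting error, with chi-squared per degree of freedom of 4.91 to 20.24.

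Named with values are, in each knockdown against parental cells and each direction, the 5 called members with the smallest p. Between knockdowns they are 3 per direction. Added are the 5 with the smallest p among the 4 groups, the 3 with the highest level, those under the filter, the MRPS18 paralogs, and up to 4 called genes of each related list. The test was checked on simulated data, where it missed most of the changes put in. The false share there was above the threshold of 0.05 in shHIF2A and shJUNs but not in shYAPTAZ. Alternatives were DESeq2 1.42.0, RLE size factors, no filter on low counts, a replicate block, libraries thinned to equal depth, the 6 libraries of the groups compared, and leaving out each library. Proteins of the members were not analysed here.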

Additional observations from a re-analysis of the deposited data

How the results depend on the processing

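Of 684 recomputed changes of named members (38 pairs of member and comparison, 18 alternatives), 655 kept their direction and their side of the threshold, 29 were no longer called and 0 reversed. These pairs were picked for the smallest p in the same data, which favours calls that are kept. Of all 28 members called in shHIF2A against parental cells, 28 calls were kept with DESeq2 and 17 with thinned libraries. Only 10 were kept without parental replicate 1 and 11 without shHIF2A replicate 2. The members called higher in shHIF2A against parental cells numbered 26 (all genes 9.84%). They were 17 without the filter on low counts (76 members tested, all genes 4.95%) and 15 with libraries thinned to equal depth (9.09%). Those lower in shJUNs against shHIF2A numbered 5 (all genes 3.17%), and 2 under either of these settings (1.65% and 2.71%). With the 6 libraries of the groups compared, 6 members were higher in shYAPTAZ against parental cells (all genes 10.2%) and 7 lower against shHIF2A (6.31%). With DESeq2, 5 were higher in shYAPTAZ against shJUNs (all genes 9.5%). Replicate numbers were not treated as pairs: of 18 correlations of deviations between same-numbered libraries (6 comparisons, 3 numbers each), 5 were over 0.1 (-0.01 to 0.22). Against each other group, a library correlated best with its own number in 26 of 36 cases, and the exceptions were all libraries numbered 2. A replicate block kept every call among members and gave 5 higher and 14 lower in shYAPTAZ against shJUNs (all genes 9.73% and 10.5%). Against parental cells it gave 31 higher and 2 lower in shHIF2A (all genes 12.3% and 11.1%). The block gave 21 and 4 in shJUNs (12.7% and 10.8%) and 15 and 3 in shYAPTAZ (14.5% and 14%). Leaving out each library gave 10 to 27 higher and 1 to 2 lower members in shHIF2A against parental cells. Of all genes, 6.04% to 11.1% were higher and 5.96% to 9.99% lower there. In shJUNs the counts were 11 to 20 and 1 to 4 (all genes 6.6% to 11.4% and 5.24% to 9.82%). In shYAPTAZ they were 6 to 14 and 2 to 3 (9.74% to 12.9% and 9.11% to 12.2%). The counts were 1 higher and 2 to 5 lower in shJUNs against shHIF2A (all genes 2.39% to 5.45% and 1.29% to 3.97%). They were 2 and 6 to 16 in shYAPTAZ against shHIF2A (6.75% to 10.4% and 5.68% to 9.15%). In shYAPTAZ against shJUNs they were 2 to 5 and 4 to 9 (4.63% to 8.47% and 5.34% to 8.75%). The cause was not tested beyond the smaller number of counts or libraries that thinning and leaving out bring. Over all alternatives the median log2 change of the members was 0.28 to 0.47 in shHIF2A, 0.13 to 0.26 in shJUNs and 0.05 to 0.16 in shYAPTAZ against parental cells. It was -0.19 to -0.10 in shJUNs against shHIF2A, -0.33 to -0.16 in shYAPTAZ against shHIF2A and -0.13 to 0.00 in shYAPTAZ against shJUNs, the ends of the last range coming without shYAPTAZ replicate 3 and replicate 1. At these depths the members under 5 CPM, and those whose ends are shared with another gene, limit what can be read.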

Other observations

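The libraries of a group differed in how much of the RNA came from nuclear genes of the mitochondrial ribosome and how much from its rRNAs. In each of the 4 groups the library with the highest summed level of mitochondrial ribosomal protein mRNAs, replicate 3, had the lowest summed level of the mitochondrial rRNAs. Replicate 1 had the lowest protein sum and the highest rRNA sum in each group. The protein mRNAs of replicate 3 summed to 7840 CPM in shHIF2A, 7077 CPM in shJUNs, 7177 CPM in shYAPTAZ and 5760 CPM in parental cells. Their rRNAs summed to 36980 CPM in shHIF2A, 34157 CPM in shJUNs, 39188 CPM in shYAPTAZ and 34663 CPM in parental cells. The other libraries had rRNA sums of 42398 to 50683 CPM in shHIF2A, 39893 to 41622 CPM in shJUNs, 50994 to 54539 CPM in shYAPTAZ and 40220 to 41078 CPM in parental cells. This was noticed after the values were seen and was not tested.

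Within 1000 kb of MRPL12, 55 other genes were tested, and 13 of them were called higher and 0 lower in shJUNs against parental cells, with a median of 0.51 on the log2 scale (of all genes, 10.3% were called higher and 8.93% lower). In shHIF2A 11 of these neighbours were higher and 4 lower (median 0.04; of all genes, 9.84% higher and 8.80% lower), and in shYAPTAZ 3 were higher and 7 lower (median -0.30; of all genes, 13.0% higher and 12.3% lower). Within the same distance of MRPL17, 15 other genes had medians of 0.43 in shHIF2A, 0.23 in shJUNs and 0.47 in shYAPTAZ, but 1, 1 and 2 of them were called higher. The same window was examined around MRPL52, MRPL57, MRPL40, MRPL11, MRPL48 and MRPS31. In shYAPTAZ 8 of 21 neighbours of MRPL52 were called higher and 0 lower (median 0.67). Of 12 neighbours of MRPL57, 1 was higher and 5 were lower there (median -0.60). The medians in shYAPTAZ were 0.09 for MRPL40, 0.10 for MRPL11, -0.16 for MRPL48 and -0.25 for MRPS31. MRPL12 and MRPL17 were picked for their calls, and the part of the neighbourhoods in any of these calls was not tested.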
